A study of Mus musculus with 2 samples.

Results

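The promoter regions described here carried a DNase-seq peak in replicate 2 of embryonic mouse liver and no peak in replicate 1. Peaks from the longer deposited list of each replicate were joined wherever they overlapped by 1 bp or more, which gave 99252 regions. The members were selected on the presence of peaks: a region was taken when it held replicate 2 peaks only and lay within 1 kb of a GENCODE M21 transcript start of a protein-coding gene. That gave 7970 regions at 5297 genes, beside 19984 promoter regions with peaks of both replicates, called shared, and 5043 promoter regions of replicate 1 alone. Of the 5297 genes, 3772 (71.2%) also had a shared promoter region and 1525 (28.8%) had none. These 1525 genes, which made up 6.95% of the 21938 protein-coding genes on 21 chromosomes, and the 2490 regions at them are the main subject. Of the remaining member regions, 5435 lay at genes that all had a shared region and 45 lay at genes of both kinds. Because the peak calls of both replicates chose the members, their values, widths, positions and classes are a description with no test.

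The liver came from mouse embryos aged 13.5 days of the C57BL/6N,129 strain, labelled WT with A85 YAC in multiple copies (a YAC is a yeast artificial chromosome). Both libraries carry this same description and the same donor label and were made from separately registered tissue samples, so replicate 2 and replicate 1 are 1 library each of 1 group. The labels give no sex, and the content of the A85 YAC was not given in the sources used here. A difference between replicate 2 and replicate 1 is therefore a difference between 2 libraries and has no replicate check.

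DNase I cuts exposed DNA more readily than DNA wrapped in nucleosomes, and active promoters are among the most exposed parts of the genome. Many promoters of widely used and of developmental genes lie in CpG islands, stretches rich in C, G and the dinucleotide CG, while many promoters of tissue-restricted genes are poor in CG. At mid-gestation the mouse liver is the main site of red cell formation, and its hepatoblasts, endothelial cells, stellate cells and mesothelium are outnumbered by blood cells. Marker lists were set beside the tissue label. All 18 erythroid transcription factor genes and all 20 genes of red cell membrane proteins and receptors had a shared promoter region. So did 14 of 26 hepatoblast genes (53.8%), near the 58.4% of all protein-coding genes, and 6 of 23 genes of adult hepatocyte metabolism (26.1%), under it. All 20 housekeeping genes were shared as well, so a fully shared list does not by itself mark a tissue.

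The sequences below are examples from members with high values and are not a typical sample. Of the 2490 regions, 42.4% fell outside the limits for CG-rich regions given further on. The first 4 are from the genes with the highest replicate 2 values among those whose region held a usable stretch, and each of the other 5 is from the highest member with such a stretch of a gene list described further on. Each is the longest stretch of the region, up to 200 bases, outside annotated untranslated exons, on the plus strand of mm10, 5' to 3', with every CG in capitals.
Cox7a2l, chr17:83514501-83514700: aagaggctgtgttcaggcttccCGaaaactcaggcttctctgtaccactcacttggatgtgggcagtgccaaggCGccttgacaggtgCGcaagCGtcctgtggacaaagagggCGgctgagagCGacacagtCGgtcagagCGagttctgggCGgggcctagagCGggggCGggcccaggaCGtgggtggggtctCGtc
Dtx3, chr10:127195151-127195350: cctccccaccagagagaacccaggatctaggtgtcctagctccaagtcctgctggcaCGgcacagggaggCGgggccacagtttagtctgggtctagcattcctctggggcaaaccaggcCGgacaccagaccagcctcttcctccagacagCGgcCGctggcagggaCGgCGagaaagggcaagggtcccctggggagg
Igfbp4, chr11:99041061-99041243: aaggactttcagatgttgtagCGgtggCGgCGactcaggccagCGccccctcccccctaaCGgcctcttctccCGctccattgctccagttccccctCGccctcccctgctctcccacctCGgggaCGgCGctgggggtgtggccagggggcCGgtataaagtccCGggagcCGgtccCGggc
Nfib, chr4:82506301-82506500: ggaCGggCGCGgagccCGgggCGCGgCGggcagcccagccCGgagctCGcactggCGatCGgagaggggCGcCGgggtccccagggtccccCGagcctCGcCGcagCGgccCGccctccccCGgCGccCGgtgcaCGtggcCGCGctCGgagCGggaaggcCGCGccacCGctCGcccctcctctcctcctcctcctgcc
Onecut1, chr9:74861701-74861900: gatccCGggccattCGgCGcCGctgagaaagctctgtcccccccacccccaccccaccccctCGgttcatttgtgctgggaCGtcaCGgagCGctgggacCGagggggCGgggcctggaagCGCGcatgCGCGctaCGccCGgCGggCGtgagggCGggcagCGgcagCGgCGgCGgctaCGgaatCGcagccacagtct
Wt1, chr2:105126411-105126528: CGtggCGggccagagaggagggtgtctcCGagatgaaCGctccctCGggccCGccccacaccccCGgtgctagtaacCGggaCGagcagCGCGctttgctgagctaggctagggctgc
Esam, chr9:37527934-37528077: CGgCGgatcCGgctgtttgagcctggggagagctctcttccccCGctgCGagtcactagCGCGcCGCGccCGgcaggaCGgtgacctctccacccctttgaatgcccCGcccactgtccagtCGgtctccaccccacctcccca
Foxf1, chr8:121083715-121083914: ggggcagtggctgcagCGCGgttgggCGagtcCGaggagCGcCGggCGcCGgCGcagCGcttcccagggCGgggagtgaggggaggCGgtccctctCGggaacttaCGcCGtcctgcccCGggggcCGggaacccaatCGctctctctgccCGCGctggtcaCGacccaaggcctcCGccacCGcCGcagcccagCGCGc
Wnt1, chr15:98789601-98789786: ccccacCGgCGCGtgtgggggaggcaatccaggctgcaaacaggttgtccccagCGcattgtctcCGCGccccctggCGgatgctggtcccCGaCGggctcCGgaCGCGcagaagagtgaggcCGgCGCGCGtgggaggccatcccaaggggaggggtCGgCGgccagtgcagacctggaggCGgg
The stretch at Nfib held 30 CG in 200 bases and that at Foxf1 held 26, whereas the stretch at Dtx3 held 7 in the same length. The stretch at Igfbp4 contains the letters TATAAA near its right end, a TATA box motif, in a region that covered a start of the gene.

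The 2490 regions at genes without a shared promoter region were low in value. Peak values have no named scale in the sources used here, but all of them were whole multiples of a step, 0.00604 in replicate 2 and 0.0127 in replicate 1, within 0.05 of a step. Dividing by the step gives a count, whose 95% Poisson interval covers counting error only. The members had a median value of 0.429 (interquartile range 0.320 to 0.561, lowest 0.0785, highest 6.85), which is 71 counts (53 to 93, lowest 13, highest 1134). Among all 73852 peaks of replicate 2, 24.4% lay at or under this median value. In replicate 1, 17.5% of the 76130 peaks lay at or under the same value, which would be 33.9 counts there.

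Member regions at genes that also had a shared region were higher, with a median value of 0.519 and 86 counts. Shared promoter regions had a median value of 2.40 in replicate 2, or 397 counts, and 2.62 in replicate 1, or 207 counts. The 551 regions of replicate 1 alone at genes without a shared region had a median value of 0.481 in replicate 1, or 38 counts. Regions of 1 replicate alone were thus low beside shared regions in both libraries. The same value takes about 71 counts in replicate 2 and 33.9 in replicate 1. The part that depth plays in which regions have a peak was not tested.

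**Figure D1:**
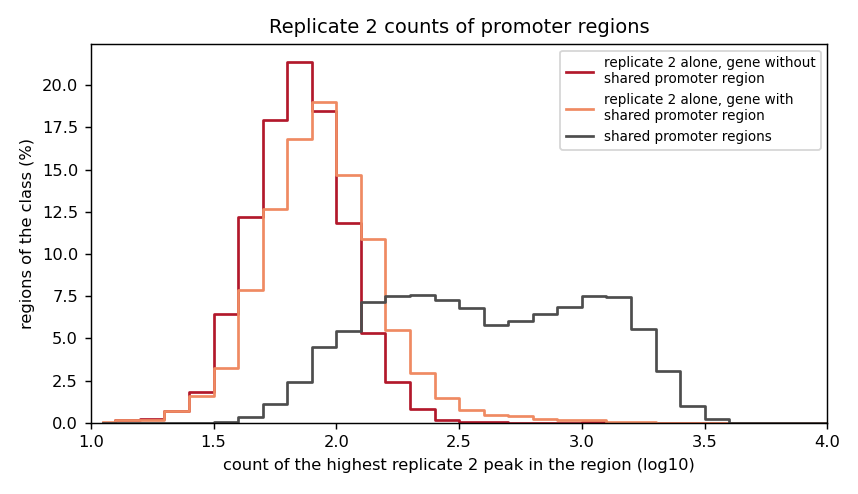
Replicate 2 counts of promoter regions (horizontal axis, log10 of the count of the highest replicate 2 peak in the region) against the percent of regions of each class in that bin. The replicate 2 alone regions at genes without a shared region, with a median of 71 counts, and those at genes with one, with a median of 86, lie to the left of the shared regions, with a median of 397.

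Beside shared promoter regions, the members without a shared region were narrow. Their median was 200 bp (interquartile range 114 to 303, narrowest 21, widest 1902), against 186 bp for members at genes with a shared region and 280 bp for shared promoter regions. Widths over 500 bp occurred in 9.16% of these members and in 12.4% of shared promoter regions. Widths under 100 bp occurred in 19.8% of these members, in 25.5% of members at genes with a shared region and in 0.180% of shared promoter regions. A shared region joins peaks of both replicates, so its width covers both. Value went only loosely with width across the 2490 regions (Spearman's rho 0.36, a description across regions of 1 library), and more closely with the number of replicate 2 footprints (0.55). A footprint is a short stretch inside a peak that DNase I cuts less than its surroundings; the part that depth plays in this relation was not tested.

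They lay close to transcript starts. The median distance to the nearest start of a protein-coding gene was 67 bp (interquartile range 0 to 343.5), and 36.4% of the regions covered a start (95% Wilson interval 34.6 to 38.3%). By distance, 64.6% of regions lay within 200 bp of a start, 19.6% farther off but within 500 bp, and 15.8% beyond that. The members at genes with a shared region stood farther off, at a median of 334 bp with 16.9% over a start, whereas 61.2% of shared promoter regions covered one. Position along the gene was read from a single start per region, the nearest. Where a region covered several starts of a gene, the lowest coordinate was taken. By this reading the midpoints of the members without a shared region had a median of 60 bp downstream of the start. They were upstream in 40.1%, against 59.1% of shared promoter regions. Among the replicate 1 alone regions at genes without a shared region, 59.2% were upstream. The part that this choice of start plays in these shares was not tested. The start so taken was the 5' end of the gene for 48.2% of the members. The rest can include regions that cover the 5' end along with another start. Of the members, 81.3% lay within 1 kb of a gene's 5' end. By gene, 854 of the 1525 (56%) had a member region over a start.

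**Figure D2:**
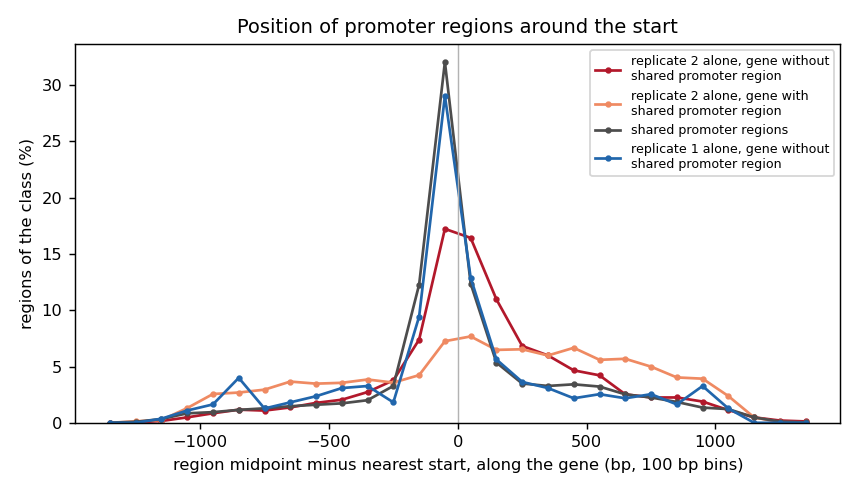
Percent of the regions of each class in 100 bp bins of the distance between the region's midpoint and the nearest protein-coding start (bp, negative values upstream, the grey line is the start). Where a region covers several starts of a gene, the lowest coordinate is taken. The shared regions and the replicate 1 alone regions have a sharp maximum just upstream of the start, while the replicate 2 alone regions at genes without a shared region have a lower maximum that extends downstream, with a median of 60 bp.

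The values on both sides of the 1 kb limit overlapped. Just inside 1 kb were regions of Acvr2b (an activin receptor, value 0.622), Fam69b (0.549) and Eef1d (a translation elongation factor subunit, 0.513), all 1000 bp from a start. Just outside were regions of Nol4l (0.918) and Gps2 (0.217) at 1001 bp and of Primpol (0.628) at 1002 bp. On the side of the overlap rule, the nearest replicate 1 peak was a median of 13322 bp from the members without a shared region. It lay within 1 kb of 183 (7.35%), within 200 bp of 62 (2.49%) and directly adjacent in 4. At members with a shared region the median distance to a replicate 1 peak was 489 bp. The split largely sets this difference, since a shared region holds a replicate 1 peak.

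Other replicate 1 signal in these regions was scarce, which the choice of regions without a replicate 1 peak largely fixes. A base with a false discovery rate (FDR) under 0.05 in replicate 1 was listed in 160 of the 2490 regions (6.43%), against 19.8% of the members at genes with a shared region. A replicate 1 footprint lay in 2 of the 2490 (0.0803%). In replicate 2 itself, 73.2% of the regions held a footprint and 34.1% were also in its shorter peak list, against 91.5% and 90.6% of shared promoter regions. In bulk tissue, fewer cells with an exposed promoter and less exposure per cell cannot be told apart.

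Most of the 1525 genes had a single member region: 870 (57%) had 1, 407 had 2, 148 had 3, 69 had 4 and 31 had 5 or more. A promoter region of replicate 1 alone, elsewhere within 1 kb of a start of the same gene, was present at 117 genes (7.67%), which leaves 1408 with no promoter peak in replicate 1 at all. The mirror class, genes with a promoter region of replicate 1 alone and no shared one, held 505 genes or 2.30% of all protein-coding genes. A shared promoter region was present at 12812 genes, or 58.4%.

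The 3 highest member regions lay within 41 bp of a replicate 1 peak. Cox7a2l, which encodes a factor for assembling respiratory supercomplexes, had the highest value, 6.85 (95% Poisson interval 6.45 to 7.26, 1134 counts), in a 240 bp region at chr17:83514481-83514720, 151 bp from a start. A replicate 1 peak with a value of 5.35 stood 41 bp away, at chr17:83514241-83514440, and the lowest replicate 1 FDR inside the region was 4.26e-20. Zfp949, a zinc finger gene, had 2.47 (2.24 to 2.72) over its start at chr9:88548181-88548560, directly beside a replicate 1 peak of 3.77. Cybc1, whose product is needed for the phagocyte NADPH oxidase, had 2.17 (1.95 to 2.41) in 80 bp at chr11:121229141-121229220, directly beside a replicate 1 peak of 3.21. The lowest replicate 1 FDR was 2.57e-32 in the Zfp949 region and 2.13e-23 in the Cybc1 region. At these 3 genes both replicates had a peak at the promoter and the peaks did not overlap, so they are in the class because the called intervals did not meet.

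The next genes by value had no such neighbour. Dtx3, a ubiquitin ligase of the deltex family, had 1.70 (1.51 to 1.91) at chr10:127195101-127195400, 309 bp from a start and 4947 bp from the nearest replicate 1 peak. Igfbp4, an insulin-like growth factor binding protein, had 1.64 (1.45 to 1.84) over its start at chr11:99041061-99041360. Nfib, a nuclear factor I transcription factor, had 1.53 (1.34 to 1.73) in a region of 80.2% GC with 11 footprints, 402 bp from a start. These 3 regions held no base with a listed replicate 1 FDR. Ephb4, the ephrin receptor of venous endothelium, also had 1.53, over its start, 11281 bp from a replicate 1 peak, and its lowest replicate 1 FDR was 0.0314.

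The other 13 of the 20 highest spanned 1.29 to 1.5. They were the actin-binding gene Synpo (1.5), Rilpl1 (1.47), the CXXC zinc finger gene Cxxc5 (1.44), Zfp791 (1.44), Mta1 of the NuRD complex (1.39), Inha, the inhibin alpha subunit (1.39), Ckap4 (1.38), the growth factor Vegfb (1.37), the basement membrane laminin Lamb2 (1.37), the guidance cue Rgma (1.32), Trim7 and Gm12184 (1.3) and the small GTPase Rab34 (1.29). Synpo also had a peak of replicate 1 alone, with a value of 0.608, at another of its starts. Trim7 and Gm12184 share 1 region, in which the median 31-base word occurs 2 times in the assembly, so its reads could belong to a copy. At all 20 genes the region held at least 1 replicate 2 footprint, and at 11 of the 20 it covered a start.

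**Figure D3:**
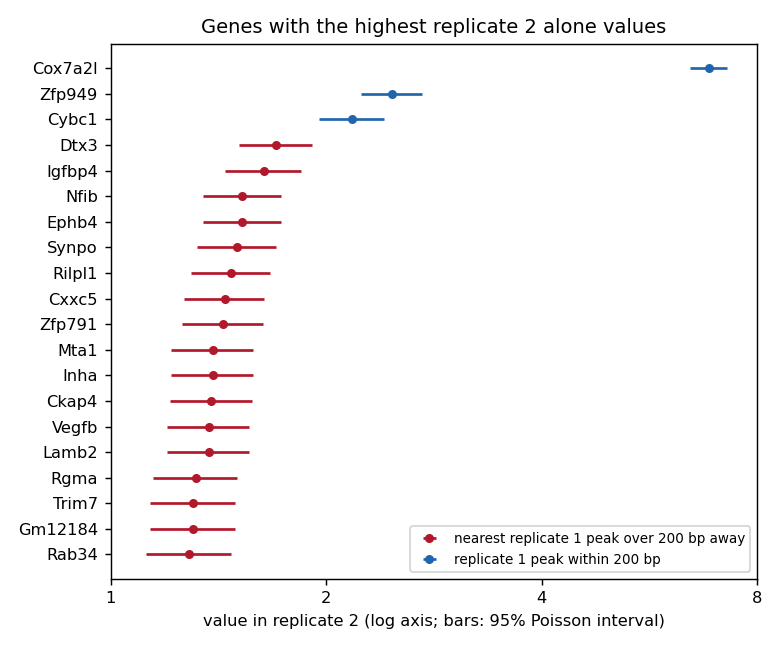
Replicate 2 value of the highest member region (points, log axis) with its 95% Poisson interval (bars) for the 20 genes with the highest values among genes without a shared promoter region. Blue marks a replicate 1 peak within 200 bp of the region, which holds for Cox7a2l at 6.85, Zfp949 at 2.47 and Cybc1 at 2.17, and red marks the other 17, which lie at 1.70 or lower.

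Ranking by width and by number of member regions picked out other genes. The widest region at a gene of this class was 2236 bp, at Mmp23, a membrane metalloproteinase gene, and it also lay within reach of a gene that had a shared region. Next was Tril, a co-receptor of innate immune signalling, with 1902 bp, followed by Rhbdl3 (1250), Mdga2 (1248), the VEGF receptor Flt1 (1242), the tropomyosin Tpm4 (1229), the homeobox gene Irx5 (1220) and Mab21l2 (1183). The highest values at these 8 genes ran between 0.410 and 0.930, and none of the 8 was among the 20 highest by value. The most member regions were at Cfb (complement factor B) and Lsp1 with 11 each, Pde4c with 10, the endodermal transcription factor Gata6 and Trhde with 7 each, and 6 genes with 6 each, of which Itga5, the fibronectin receptor subunit, had the highest value and Nab2, Tub, Wnt5a, Lypd1 and Fgf16 were the others. The highest value was 1.22 at Itga5, 1.04 at Gata6, 0.634 at Cfb, 0.604 at Lsp1, 0.380 at Pde4c and 0.290 at Trhde.

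The hepatoblast list had 6 of its 26 genes in the class (23.1%), beside the 6.95% of all protein-coding genes. Apoa1, which encodes the main protein of high-density lipoprotein, had the highest value of these, 1.05 (0.900 to 1.22, 174 counts), over its start at chr9:46228581-46228820, with a replicate 1 FDR of 0.0311 at its lowest and a replicate 1 peak 1161 bp away. Onecut1, a transcription factor of hepatoblast and bile duct formation, had 0.785 (0.656 to 0.932) over its start, 9121 bp from a replicate 1 peak. Ttr, the thyroid hormone carrier transthyretin, had 0.634, the plasma glycoprotein gene Ahsg 0.483 and Hnf4a, a central hepatocyte transcription factor, 0.404. The erythroid and red cell lists had none, since every member had a shared region. The heme and iron list had 16 of 18 genes shared and 1 in the class, Alas2, the red cell form of the first enzyme of heme synthesis. Its region, 134 bp over the start at chrX:150547387-150547520, had 118 counts in replicate 2 (value 0.712, 0.590 to 0.853), no footprint, and a replicate 1 peak 2161 bp away.

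Supporting cell types of the liver had larger shares. The stellate and mesenchymal list had 9 of 22 genes in the class (40.9%) and 10 shared. Wt1, the mesothelial transcription factor, had 0.694 (0.573 to 0.833) over its start at chr2:105126411-105126589, and the nearest replicate 1 peak was 61772 bp away. The intermediate filament gene Des had 0.688 and the mesenchymal transcription factor gene Hand2 0.622. Col3a1, a fibrillar collagen, had 0.561, the smooth muscle actin gene Acta2 0.477 and Hgf, the hepatocyte growth factor made by stellate cells, 0.465. Tcf21, Postn and Lum were the other 3, with values down to 0.241 at Lum. Des also had a promoter peak of replicate 1 alone, of value 0.392 and 1594 bp away, and the other 8 had none. In 7 of the 9 the highest region covered a start.

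The endothelial list had 8 of 20 genes in the class (40%) and 4 shared. Esam, an endothelial adhesion molecule, had the highest value, 0.7 (0.579 to 0.840), at chr9:37527934-37528202, and 4 member regions in all. The SoxF transcription factor genes Sox17, Sox18 and Sox7 had 0.549, 0.543 and 0.441, and the VEGF receptor gene Flt1 had 0.465. The angiopoietin receptor Tek had 0.380 and its relative Tie1 0.410, and Nos3, the endothelial nitric oxide synthase, had the lowest, 0.217 (0.152 to 0.301, 36 counts). None of the 8 genes had a promoter peak in replicate 1. The epithelial, bile duct and gut list had 6 of 15 genes in the class (40%), led by E-cadherin, Cdh1, at 0.827, the keratin gene Krt8 at 0.694 and Epcam at 0.616. Cftr had 0.235 and Pkhd1 0.217. At Cftr there was also a promoter peak of replicate 1 alone, of value 0.342 and 1034 bp away.

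Of 62 developmental transcription factors, 21 (33.9%) were in the class and 22 had a shared region. Foxf1, a forkhead factor of gut and liver mesenchyme, had 1.05 (0.900 to 1.22), 446 bp from a start at chr8:121083689-121083940, and Gata6 had 1.04 (0.894 to 1.21) over its start, with 7 regions that held 21 footprints together. Dlx2 had 0.839, Tbx2 0.803, Tbx1 0.742 and Lhx9 0.724, all transcription factors of limb, face, heart or gonad development. Hand2 is also on the mesenchymal list. Further members were Irx5, Irx3, Tbx18, Foxd1, Six2, Otx1, Twist1, Hand2, Nkx3-2, Foxf2, Tbx15, Twist2, Lhx8 and Irx1, at 0.404 to 0.712.

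Secreted ligands of the WNT, hedgehog, BMP and FGF families had 15 of 39 genes in the class (38.5%), and 14 had a shared region. Wnt1 had the highest value, 0.899 (0.761 to 1.06), in 186 bp that lay 71 bp from a start, at chr15:98789601-98789786. Gdf6 had 0.767, Wnt5b 0.755, Wnt4 0.748, Ihh 0.694 and Fgf10 0.586. Wnt5a stood out by extent rather than by value: its highest region had 0.519 but was 1176 bp wide, and its 6 regions covered 3005 bp and held 22 footprints. The nearest replicate 1 peak was 53928 bp from it. Wnt2b, Wnt9b, Fgf8, Fgf3, Wnt16, Fgf5, Bmp3 and Shh completed the group, with Shh lowest at 0.254.

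Other lists had shares nearer to the 6.95% of all protein-coding genes, or no members in the class. The Hox list had 4 of 39 (10.3%), which were Hoxc13 at 0.567, Hoxa11 at 0.356, Hoxa9 at 0.308 and Hoxa3 at 0.157. Hoxa9 also had a promoter peak of replicate 1 alone, of value 0.696. The neural list had 2 of 20, Neurog2 at 0.525 and Neurog1 at 0.344, and the heart and skeletal muscle list had 1 of 16, Tnni1 at 0.761. Macrophage, granulocyte and mast cell, and lymphoid lists had 0 of 20, 0 of 18 and 0 of 20, with 5, 3 and 6 genes shared. The 95% Wilson intervals of these shares reached up to 16.1%, 17.6% and 16.1%, so they include the share of all genes. All 20 housekeeping genes were shared. Over all 17 lists, 406 of 407 listed genes matched the annotation and 72 were in the class.

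Genes with a shared promoter cannot be in the class, so the lists were also read among genes without one. There, 16.7% of all protein-coding genes were in the class. This share itself ran from 2.26% at genes under 45% promoter GC to 66.8% from 65% up, as given further on. The lists were not matched for GC here, and the part of GC in their shares was not tested. The share was 9 of 12 (75%) for stellate and mesenchymal genes, 15 of 25 (60%) for ligands, 21 of 40 (52.5%) for developmental transcription factors, 8 of 16 (50%) for endothelial genes, and 6 of 12 (50%) for both the hepatoblast and the epithelial lists. The neural list had 2 of 8 (25%) and the heme and iron list 1 of 2 (50%). Below the 16.7% were Hox genes, at 4 of 29 (13.8%), heart and skeletal muscle genes, at 1 of 14 (7.14%), genes of adult hepatocyte metabolism, at 1 of 17 (5.88%), and the macrophage, granulocyte and mast cell, and lymphoid lists, at 0. The shares depend on the peak list: with the shorter list the class held 5.52% of all genes, 22.7% of stellate and mesenchymal genes, 20.5% of ligands, 19.4% of developmental transcription factors and 15% of endothelial genes. With the upper 50% of replicate 2 peaks by value it held 1.03% of all genes, 0 stellate and mesenchymal or endothelial genes, 2 ligands and 4 developmental transcription factors.

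**Figure D4:**
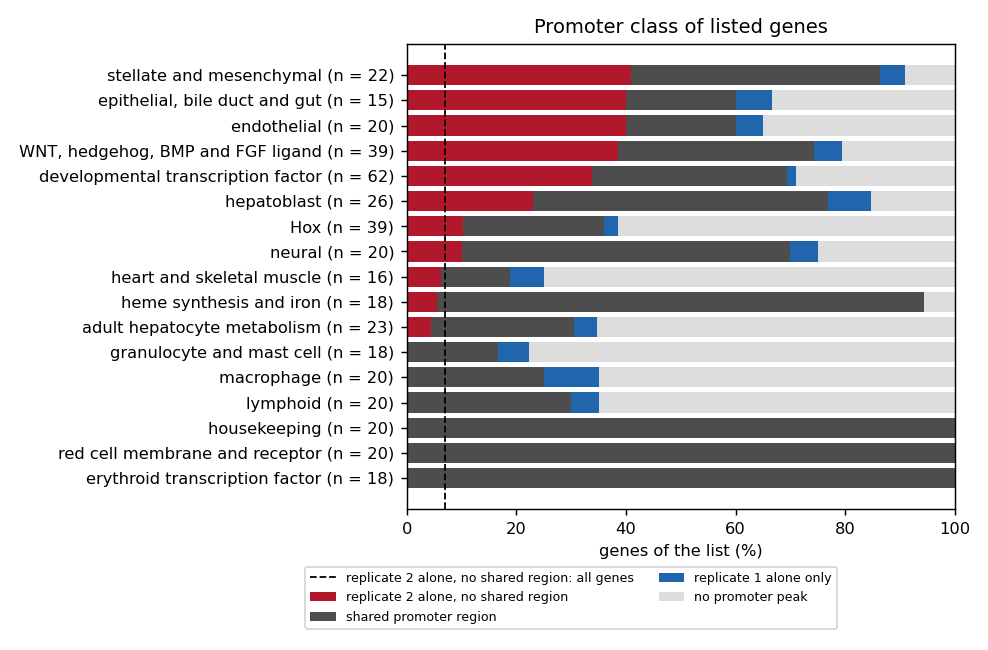
Percent of the genes of each list (n, number of genes) with a replicate 2 alone promoter region and no shared one (red), a shared region (dark grey), a replicate 1 alone region only (blue) or no promoter peak (light grey). The dashed line marks the 6.95% of all protein-coding genes in the red class, which the stellate and mesenchymal, epithelial and endothelial lists exceed at 40% or more and which the erythroid, red cell, housekeeping and blood cell lists do not reach.

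Gene families were chosen after their values were seen and share members with the lists, so their counts are a description only. Laminins, the basement membrane trimers, had 6 of 11 genes in the class and the other 5 shared. Lamb2 had 1.37, Lamb1 0.724, Lama3 0.706, Lama4 0.429 and Lama2 0.254. Insulin-like growth factor binding proteins had 4 of 7 in the class, all with a region over a start. Cadherins had 10 of 23, T-box factors 5 of 13, Wnt ligands 7 of 19 and Sox factors 6 of 19. Collagens had 14 of 45, led by Col16a1 at 0.815 and by Col4a1 and Col4a2, which share 1 region of value 0.658. Matrix metalloproteinases had 6 of 22, potassium channels 24 of 94 and ADAM proteases 12 of 58. Shares were smaller among forkhead factors, with 5 of 44 (11.4%), and claudins, with 3 of 33 (9.09%). They were also smaller among semaphorins, with 1 of 20 (5%), and clustered protocadherins, with 2 of 55 (3.64%). Beside the 6.95% of all protein-coding genes, forkhead factors and claudins lay above and semaphorins and protocadherins below. The 95% Wilson interval of each included that share.

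Other families were almost wholly shared or had almost no promoter peak. All 78 mitochondrial ribosomal protein genes and all 10 frizzled receptor genes, which bind the Wnt ligands, were shared, as were 48 of 50 proteasome genes and 74 of 77 ribosomal protein genes. Zinc finger genes named Zfp had 18 of 394 in the class and 325 shared. Olfactory receptors had 7 of 1133 in the class and 5 shared, and vomeronasal receptors 0 of 327 and 1 shared.

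The member regions were rich in GC and in CG. The 2490 regions at genes without a shared region had a median GC of 64.4%, against 57.8% for members at genes with a shared region, 63.5% for shared promoter regions and 51.9% for replicate 1 alone regions at genes without a shared region. CG was present at a median of 0.666 of the number its bases predict, against 0.483 at members with a shared region, 0.754 at shared regions and 0.273 at the replicate 1 alone regions. With a limit of over 0.6 for that ratio and over 50% for GC, 57.6% of the 2490 regions were rich in CG, against 66.9% of shared regions and 12.9% of the replicate 1 alone regions. Within the members, CG-rich regions covered a start in 40.7% and held a footprint in 79.1%, and the others in 30.7% and 65.2%.

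GC content moved with the sharing of peaks, in opposite directions in the replicates. Among promoter regions of 53 to 93 counts, the members' middle range, 72.9% of 4787 regions with a replicate 2 peak were of replicate 2 alone. That share was 44.7% for regions under 50% GC, 64.9% at 50 to 55%, 78.7% at 55 to 60%, 81.9% at 60 to 65%, 85.3% at 65 to 70% and 88.7% from 70% up. Among 3416 promoter regions of replicate 1 in the same range of values, the share of replicate 1 alone was 80.6%, 61.8%, 47.3%, 31.3%, 16.0% and 16.3% in the same order. In shared promoter regions the median ratio of replicate 2 over replicate 1 was 0.759 under 50% GC and 1.00 from 70% up, with 0.913 over all. The part of GC content in the class was not tested.

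**Figure D5:**
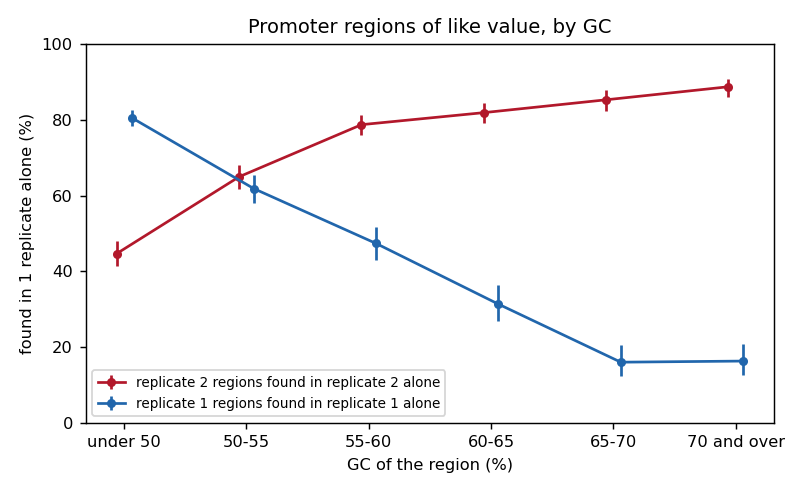
Percent of promoter regions found in 1 replicate alone (vertical axis) in bins of the region's GC content (horizontal axis, %), among regions whose value lies in the members' middle range; points are shares and bars 95% Wilson intervals. The share of replicate 2 regions in replicate 2 alone (red) is 44.7% under 50% GC and 88.7% from 70% GC up, and that of replicate 1 regions in replicate 1 alone (blue) is 80.6% and 16.3% in the same bins.

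Shares of 4 lists were also set beside those of all genes by promoter GC, measured over 500 bp on either side of the 5' end. Among all protein-coding genes the class took 2.01% under 45% GC, 6.54% at 45 to 50%, 8.33% at 50 to 55%, 7.94% at 55 to 60%, 8.54% at 60 to 65% and 9.19% from 65% up. For the developmental transcription factor, ligand, mesenchymal and endothelial lists together, the shares were 40%, 30.8%, 38.1%, 28.1%, 32.3% and 51.5% in the same order. These 4 lists were combined after their shares were seen to be high, so their place above all genes in the 6 bins, which hold 10 to 33 list genes, supports nothing about GC. Among genes without a shared region the shares were close in 3 bins, with 39.1% of 23 list genes and 35.9% of all genes at 55 to 60% GC, 62.5% of 16 and 58.5% at 60 to 65%, and 73.9% of 23 and 66.8% from 65% up. In the other 3 bins they were 50% of 8 and 2.26% under 45% GC, 44.4% of 9 and 10.2% at 45 to 50%, and 61.5% of 13 and 20.8% at 50 to 55%.

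Short motifs were looked for on both strands of 200 bp around the midpoint of each region. This window reaches past the edges of narrower regions. The lower quartile of width was 114 bp in the 2490 regions and 220 bp in shared promoter regions, so flanking bases were counted more often in the members. GATA motifs, spelled AGATAA, were in 2.69% of the 2490 regions, 3.99% of members with a shared region, 4.90% of shared promoter regions and 14.0% of replicate 1 alone regions without a shared one. The KLF or SP motif CCNCNCC was in 76.7% of the 2490 regions and 78.8% of shared regions, against 54.6% of the replicate 1 alone regions. Motifs of general promoter factors were scarcer than in shared regions, with the ETS motif CCGGAAG in 3.33% against 10.8%, CCAAT in 16.4% against 25.8%, the NRF1 motif GCATGCG in 1.93% against 4.45% and the CRE motif TGACGTC in 1.00% against 3.81%. TATAAA was in 2.37% of the 2490 regions and 2.68% of shared regions. A match is a run of letters and not a bound site. The classes differ in GC content, width and position as given above. The part that each of these plays in the motif shares was not tested.

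Member regions at genes that also had a shared region lay nearer to replicate 1 peaks. The split largely fixes this, because a shared promoter region itself holds a replicate 1 peak near a start of the gene. A replicate 1 peak lay within 1 kb of 73.9% of them and within 200 bp of 20.1%. The highest was at Chml, a Rab escort protein gene, with 10.3 (9.85 to 10.8) over a start at chr1:175692841-175693060, directly beside a shared region of 9.91 in replicate 2 and 13.0 in replicate 1. The splicing factor gene Sf1 had 8.35, the proton pump subunit gene Atp6v0c 7.65, Pagr1a 7.63, Txndc9 6.76 and the transcription factor gene Atf2 6.56. In these 6 the nearest replicate 1 peak was 1 to 81 bp away, so their high values belong to promoters at which both replicates had a high peak.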

How the data were processed

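DNase-seq signal had been measured in 2 libraries of 1 group, which are replicates 2 and 1 in the labels. The authors deposited, per library and on build mm10, 2 peak lists with a signal value per peak, a false discovery rate (an FDR, a kind of adjusted p-value) per stretch of bases and footprints. Deposited FDR values lie under 0.05, and each line of the deposited footprint files holds a p-value threshold of 0.01. The signal's normalization, library totals, aligner and peak caller were not given in the sources used here. The longer peak list was used.

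Members and gene lists were chosen with earlier results of these data known, and the 34 gene families after values were seen. Genes were named by a rule: the 20 highest values, the 8 widest regions, the 6 genes with most regions, list members, the 6 highest with a shared region and the regions beside the 1 kb limit. Some genes that the rule names are not reported here. Annotation and sequence were GENCODE M21 and GRCm38.p6. A region is repeated where its median 31-base word occurs at least 2 times in that assembly. Counts are signal over its step (0.00604 and 0.0127 in replicates 2 and 1), and 95% Poisson and Wilson intervals cover counting error only. Python 3.11.15, numpy 2.4.6, pandas 2.3.3, scipy 1.17.1, numba 0.67.0 and matplotlib 3.10.9 were used. The merging and classing steps were tested on simulated data. No test was run, as both replicates chose the members. Alternatives were the shorter list, other windows, starts and overlaps, upper 50% values, replicate 1 FDR and repeats.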

Additional observations from a re-analysis of the deposited data

How the results depend on the processing

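The rule gave 7970 member regions, 1525 genes without a shared region, and medians of 0.429 (value), 200 bp (width) and 67 bp (distance) over the 2490 regions at these genes. With the shorter peak list these were 5071 member regions, a value of 0.586, a width of 190 bp and a distance of 50 bp. With the upper 50% of replicate 2 peaks by value there were 1486 member regions and 226 genes, with a value of 0.887, a width of 280 bp and a distance of 0 bp. Windows of 500 bp and 2.5 kb gave values of 0.441 and 0.410 and distances of 25 bp and 134.5 bp. Only the 5' end of each gene gave a value of 0.441 and a distance of 149.5 bp. Counting a replicate 1 peak within 200 bp as an overlap gave a value of 0.447, a width of 220 bp and a distance of 17 bp. The hepatoblast, epithelial, developmental factor and ligand lists had a larger share in the class than all genes under all 10 alternatives. Of these alternatives, 1, leaving out genes with a replicate 1 alone region, was chosen after seeing the data. The alternatives reuse the same peaks and are not independent. With the upper 50% of peaks the shares rested on 2 hepatoblast, 1 epithelial, 4 developmental factor and 2 ligand genes, beside 1.03% of all genes. The mesenchymal, endothelial and Hox lists had a larger share than all genes under 9 of 10, and had 0 genes in the class with the upper 50% of peaks. No paired analysis was possible because the libraries form 1 group. Leaving out a replicate was not run, since the class needs both. Depth, GC content and library cannot be told apart here, and a promoter without a peak is one not detected at this depth.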
